A study of Homo sapiens with 4 samples.

Results

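The aminoacyl-tRNA synthetases are the enzymes that join each amino acid to its transfer RNA. Transcripts of 36 of them were compared between U87-MG cells depleted of MAGED2 and their controls, 20 acting in the cytosol and 16 in mitochondria, out of 23444 gene entries in the tables. Members were chosen by name, in the symbols of the deposited tables (AARS is now AARS1, for example), and all 36 were found once each and passed the filter on low counts. U87-MG is an established human glioblastoma cell line. RNA of 4 libraries was sequenced. The shMAGED2 group (2 libraries) carried a short hairpin RNA against MAGED2, and the shCON group (2 libraries) carried a negative control hairpin, in otherwise the same line. The series design describes a stable knockdown, while a protocol in the labels speaks of transient transfection, ZDHHC15 hairpins and harvest at 36 h, and which applies was not resolved. How many hairpins or clones were used is not stated, nor whether the replicates came from different cultures, and the p-values therefore reflect only how these libraries vary, which may be technical.

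Each synthetase matches a single amino acid to the tRNAs that carry its anticodons, so together they supply every substrate of the ribosome. Human cells have separate sets for the cytosol and for the mitochondrion, all encoded in the nucleus, with GARS and KARS each serving both compartments from a single gene. A group of the cytosolic enzymes is bound in the multisynthetase complex. When tRNAs stay uncharged, the kinase GCN2 phosphorylates the initiation factor eIF2, translation of the transcription factor ATF4 rises, and ATF4 induces many cytosolic synthetase genes. ATF4 does so with C/EBP partners, at composite elements whose core reads TGATGNAA.

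Total counts were 28673774 to 36234336 per library, and the members had between 162 (NARS2) and 27275 (IARS) counts in a library. MAGED2 had 526 and 795 counts in shMAGED2, against 6090 and 5225 in shCON, a log2 change of −3.16 (SE 0.13, edgeR adjusted p = 0.000654). No library had a count of ZDHHC15, and 0 counts allow up to 3 counts, or 0.083 to 0.105 CPM (counts scaled to a common library size), and leaves any change of that gene undetectable here. The line expressed VIM at 3790 to 4206 FPKM (the authors' fragments per kilobase, scaled for depth) and CD44 at 204 to 294 FPKM. The glial lineage markers GFAP, OLIG2, SOX2, S100B, AQP4 and MBP were at most 2.17 FPKM, with AQP4 at 0. Their sum was 1.00 and 1.24 FPKM in shMAGED2, against 3.39 and 3.19 FPKM in shCON. SOX2, S100B and AQP4 had too few counts to be tested. Of the 3 tested, OLIG2 passed (log2 change −1.45, edgeR adjusted p = 0.0158), while GFAP (−1.17) and MBP (0.75) did not. Of 6 markers of the line, NES alone passed (1.88, edgeR adjusted p = 0.002), and their sum was 5298 to 5561 FPKM in shMAGED2, against 5358 to 5517 FPKM in shCON. The 10 markers of blood, epithelial, endothelial, liver and muscle cells were at most 0.543 FPKM, and CDH1 and KRT5 had no counts. Summed, those 10 were 0.994 and 0.609 FPKM in shMAGED2, against 0.956 and 1.12 FPKM in shCON. The 13 mitochondrially encoded genes took 10.1% and 4.87% of counts in shMAGED2 replicates 1 and 2, against 3.92% and 3.90% in shCON. The part of these shares and of the markers in the results was not tested. Replicates differed by more than sampling noise in shMAGED2 (chi-square per degree of freedom 89.5) and in shCON (7.42).

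Promoters are described first because the cytosolic genes differ in them. RefSeq windows on GRCh38.p14, from 250 bases before to 50 bases after the gene start, were matched for 30 members, all but DARS, LARS, VARS, YARS, AARS2 and VARS2. The core TGATGNAA was searched on both strands. It occurred in 6 of 16 cytosolic windows (37.5%), in 1 of 14 mitochondrial windows (7.14%) and in 1270 of 35116 windows of all genes (3.62%). The 6 cytosolic windows held the same spelling, TGATGCAA, and the mitochondrial one, that of YARS2, held TGATGGAA.

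The 6 cytosolic windows with the core were those of AARS, CARS, IARS, TARS, MARS and NARS. The 4 genes AARS, CARS, IARS and TARS fell in shMAGED2, while MARS and NARS had lower means that did not pass the test. WARS, GARS, SARS and EPRS, which fell too, had no such core in their windows, which says only that these letters are not within them. None of the 3 cytosolic genes that rose, FARSB, HARS and KARS, had it.

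After MAGED2 knockdown, falls outnumbered rises among the cytosolic synthetase transcripts, and all calls among the mitochondrial ones were rises. Of 20 cytosolic genes, 9 fell and 3 rose, and of 16 mitochondrial genes 5 rose and 0 fell (quasi-likelihood test of edgeR, p adjusted by Benjamini-Hochberg over 15293 genes, threshold 0.05). Over all genes tested, 23.9% passed, 11.6% as lower and 12.3% as higher. For the mitochondrial genes, 1 was lower at an unadjusted p under 0.05, and DESeq2 also called 0 lower. The median log2 change, shMAGED2 minus shCON, was −0.26 for the cytosolic genes and 0.06 for the mitochondrial ones, beside 0.003 over all genes. In CPM, both shMAGED2 libraries lay below both shCON libraries for 12 cytosolic and 5 mitochondrial genes, and above them for 5 and 6. Each of these was found for 33.0% of all genes, so the mitochondrial counts are near the background. The cytosolic and mitochondrial sets were not tested against each other, and at 2 against 2 libraries an exact permutation test of a single value cannot go below p = 0.33 (two-sided).

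Leaving out a library moved these counts. Without shCON replicate 1 and without shCON replicate 2, 6 cytosolic genes fell and 1 rose, beside 3.37% lower and 3.59% higher of all genes in the first case and 3.85% and 4.12% in the second. In both cases 0 mitochondrial genes passed in either direction with edgeR, although 5 and 4 were higher and 0 lower at an unadjusted p under 0.05. Without shMAGED2 replicate 1, 11 cytosolic genes fell and 5 rose and 7 mitochondrial genes rose and 1 fell (all genes 20.0% lower, 21.1% higher). Without shMAGED2 replicate 2, 12 cytosolic genes fell and 4 rose and 5 mitochondrial genes rose and 5 fell (all genes 23.5% lower and 23.5% higher). A group left with 1 library is taken in these fits to have the spread of the group that still has 2. The shares of all genes given here apply to every list counted below in the same fits. The 7 members that passed in all 12 alternatives were AARS, CARS, EPRS, GARS, SARS and WARS, lower, and FARSB, higher.

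**Figure D1:**
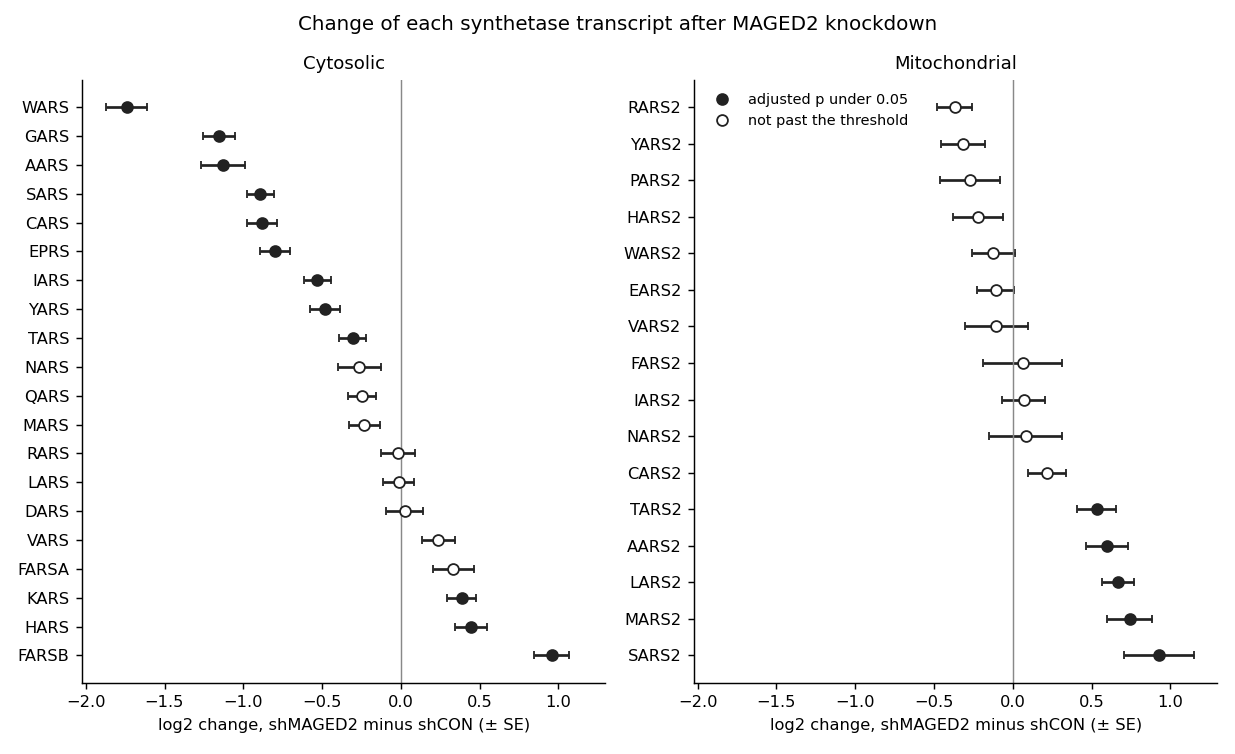
Log2 change of each synthetase transcript, shMAGED2 minus shCON (edgeR, bars are ± SE), cytosolic on the left and mitochondrial on the right. Filled points passed an adjusted p of 0.05: 9 cytosolic genes on the lower side, 3 cytosolic and 5 mitochondrial genes on the higher side.

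Levels are given next on a scale that allows for gene length. In the deposited FPKM, cytosolic genes ranged from 25.0 (VARS) to 113 (IARS) in shMAGED2 replicate 1 and from 28.1 (VARS) to 125 (IARS) in shMAGED2 replicate 2, against 16.2 (FARSB) to 231 (GARS) in shCON replicate 1 and 15.5 (FARSB) to 234 (GARS) in shCON replicate 2. Mitochondrial genes ranged from 2.07 and 2.78 (NARS2) to 82.3 and 106 (CARS2) in shMAGED2, against 2.58 and 2.19 (NARS2) to 83.6 and 85.5 (CARS2) in shCON. The median mitochondrial gene had 8.72 and 9.71 FPKM in shMAGED2, against 8.45 and 9.04 FPKM in shCON, and the median cytosolic gene 45.3 and 52.4 FPKM in shMAGED2, against 63.6 and 64.6 FPKM in shCON. CARS2 and IARS2 were the mitochondrial genes that reached the range of the cytosolic ones most clearly. IARS2 had 57.3 and 79.9 FPKM in shMAGED2, against 67.3 and 68.2 FPKM in shCON.

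Summed over the 20 cytosolic genes, the level was 1057 and 1162 FPKM in shMAGED2, against 1673 and 1656 FPKM in shCON, or 66.6% of shCON on average. The same sum over the 16 mitochondrial genes was 268 and 338 FPKM in shMAGED2, against 290 and 290 FPKM in shCON (104.6%). In FPKM the shMAGED2 libraries lay below both controls for the cytosolic sum and on either side of them for the mitochondrial sum. In CPM the cytosolic sum was again below (3475 and 3564 in shMAGED2, against 5068 and 5060 in shCON). The mitochondrial sum in CPM lay above both controls (766 and 904 in shMAGED2, against 759 and 761 in shCON). High genes weigh most in such sums, and GARS and KARS, which serve both compartments, were counted as cytosolic. Mean FPKM of GARS was 99.1 in shMAGED2, against 232 in shCON, and that of KARS 78.5 in shMAGED2, against 65.2 in shCON. The cytosolic sum was 3.94 and 3.44 times the mitochondrial sum in shMAGED2, against 5.77 and 5.72 times in shCON. With the counts, the cytosolic genes took 0.328% and 0.361% of the library in shMAGED2, against 0.517% and 0.518% in shCON. In bulk RNA, fewer cells with a transcript and less of it per cell cannot be told apart.

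**Figure D2:**
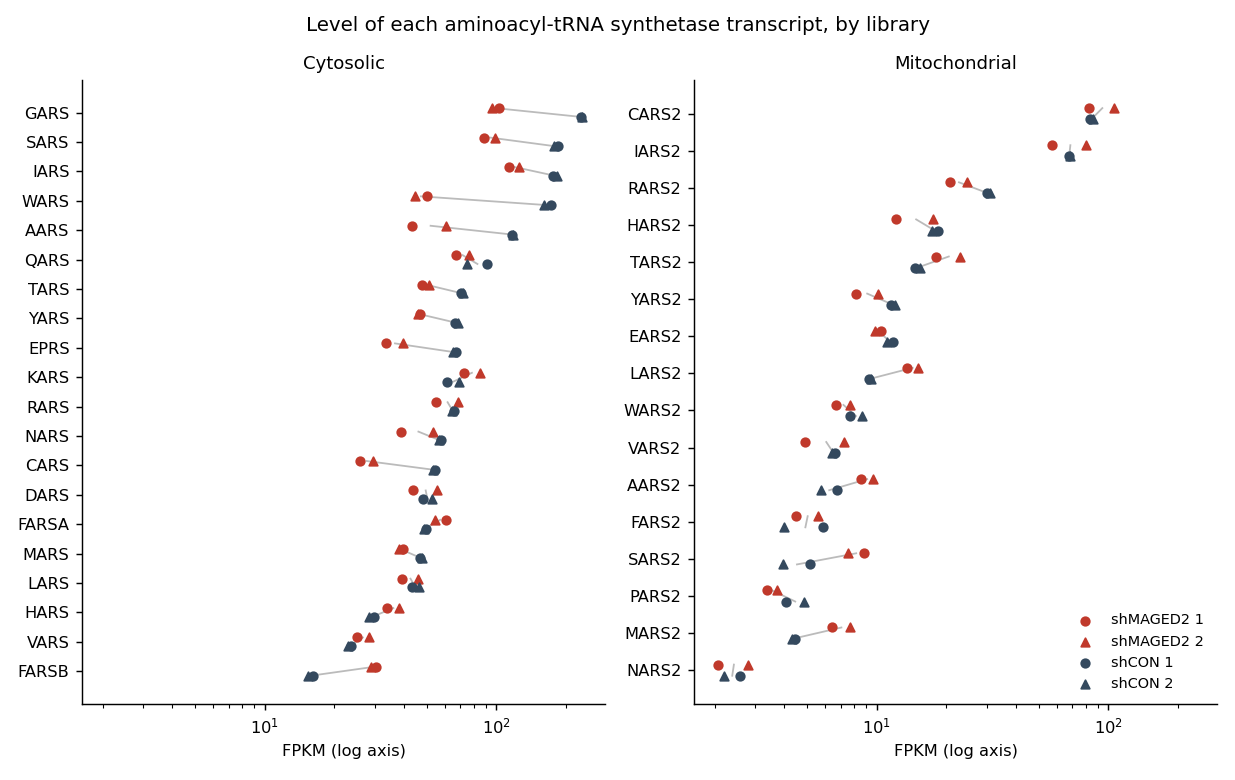
Deposited FPKM (log axis) of each synthetase in every library, shMAGED2 in red above shCON in dark blue within each row, circles for replicate 1 and triangles for replicate 2. Grey lines join the group means; rows run by the shCON mean, from GARS to FARSB for cytosolic genes and from CARS2 to NARS2 for mitochondrial ones.

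WARS, the tryptophanyl-tRNA synthetase and also a gene that interferon gamma induces, fell most of the members. It had 156 and 124 CPM (scaled by TMM, a correction of library size) in shMAGED2, against 473 and 463 CPM in shCON. The groups were far apart, and the mean in shMAGED2 was 29.9% of shCON (log2 change −1.74, SE 0.13, edgeR adjusted p = 0.00116). GARS, the glycyl-tRNA synthetase of both compartments, had 295 and 257 CPM in shMAGED2, against 617 and 611 CPM in shCON (−1.15, SE 0.10, edgeR adjusted p = 0.00159). The alanyl enzyme AARS had 165 and 215 CPM in shMAGED2, against 414 and 417 CPM in shCON (−1.13, SE 0.14, edgeR adjusted p = 0.00449). Its shMAGED2 libraries differed from each other by more than those of GARS, yet stayed well below the controls.

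SARS, which charges the serine and selenocysteine tRNAs, had 180 and 187 CPM in shMAGED2, against 348 and 333 CPM in shCON (log2 change −0.89, SE 0.09, edgeR adjusted p = 0.00221). The cysteinyl enzyme CARS had 73.5 and 76.8 CPM in shMAGED2, against 140 and 137 CPM in shCON (−0.88, SE 0.09). EPRS, a fusion of the glutamyl and prolyl enzymes, had 184 and 204 CPM in shMAGED2, against 342 and 333 CPM in shCON (−0.80, SE 0.10). In these 3 genes shMAGED2 kept 53.9% to 57.4% of the shCON level, with edgeR adjusted p-values of 0.00221 to 0.00397.

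The remaining 3 falls were smaller. IARS, the isoleucyl enzyme, had 543 and 561 CPM in shMAGED2, against 782 and 811 CPM in shCON (log2 change −0.53, SE 0.09). The tyrosyl enzyme YARS had 166 and 152 CPM in shMAGED2, against 218 and 225 CPM in shCON (−0.48, SE 0.09). TARS, which charges threonine tRNAs, had 225 and 226 CPM in shMAGED2, against 283 and 274 CPM in shCON (−0.31, SE 0.09). The groups did not overlap for any of the 3, but TARS lay just inside the threshold (edgeR adjusted p = 0.0491) and missed it without the count filter (0.0507) and with a replicate block (0.108). All 3 missed it without either shCON library.

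FARSB rose, and the other subunit of the same enzyme did not pass. Phenylalanyl-tRNA synthetase is a tetramer of FARSA, the catalytic subunit, and FARSB. FARSB had 112 and 99.0 CPM in shMAGED2, against 55.5 and 53.1 CPM in shCON, or 194% of the control mean (log2 change 0.96, SE 0.11, edgeR adjusted p = 0.00341). FARSA had 129 and 103 CPM in shMAGED2, against 93.5 and 90.2 CPM in shCON (0.33, SE 0.13, edgeR adjusted p = 0.117). Both subunits had higher values in both shMAGED2 libraries, and the difference between their changes was not tested. Per length, FARSB had 30.3 and 28.7 FPKM in shMAGED2, against 16.2 and 15.5 FPKM in shCON, and FARSA 60.4 and 54.1 FPKM in shMAGED2, against 49.5 and 48.8 FPKM in shCON. FARSB had the lower level of the 2 in every library.

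KARS, the lysyl enzyme of both compartments, and HARS, the histidyl enzyme, rose by less. KARS had 179 and 189 CPM in shMAGED2, against 139 and 143 CPM in shCON (log2 change 0.39, SE 0.09, edgeR adjusted p = 0.0302). HARS had 83.1 and 78.2 CPM in shMAGED2, against 60.6 and 58.0 CPM in shCON (0.44, SE 0.10, edgeR adjusted p = 0.0276). Neither call held in limma on the FPKM (adjusted p = 0.222 for KARS and 0.126 for HARS with a pseudocount of 1) or without either shCON library. The call of KARS was also lost in edgeR with library size alone (adjusted p = 0.073) and with a replicate block (0.0552), and it passed in 5 of the 12 alternatives.

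Among the other 8 cytosolic genes none passed the edgeR test, and 2 had an unadjusted p under 0.05. The asparaginyl enzyme NARS (log2 change −0.26, SE 0.14), the glutaminyl enzyme QARS (−0.25, SE 0.09) and the methionyl enzyme MARS (−0.23, SE 0.10) had lower CPM in both shMAGED2 libraries. The valyl enzyme VARS (0.24, SE 0.10) and FARSA had higher CPM in both. In FPKM the groups of QARS overlapped (67.2 and 76.0 in shMAGED2, against 90.8 and 75.0 in shCON). For DARS (0.03, SE 0.12), RARS (−0.02, SE 0.11) and LARS (−0.01, SE 0.10), which charge aspartate, arginine and leucine tRNAs, the groups overlapped. LARS, which also serves as a leucine sensor for mTORC1, had 206 and 224 CPM in shMAGED2, against 209 and 225 CPM in shCON. MARS shares 355 exonic bases with DDIT3 on the opposite strand, a gene with 677 and 1566 counts in shMAGED2, against 10093 and 8584 counts in shCON, and the part of these reads in the value of MARS was not tested.

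The cytosolic genes also differed by a list of synthetases commonly given as ATF4 targets, written from textbook knowledge. Over all genes 11.6% fell and 12.3% rose. Of the 13 listed genes 9 fell and 0 rose (median log2 change −0.53), whereas of the 7 other cytosolic genes 3 rose and 0 fell (0.33). At an unadjusted p under 0.05 these were 9 lower and 0 higher for the 13 genes, and 1 lower and 4 higher for the 7, and DESeq2 made the same adjusted counts as edgeR. The 13 genes are AARS, CARS, EPRS, GARS, IARS, LARS, MARS, NARS, SARS, TARS, VARS, WARS and YARS. All 6 cytosolic windows with the core belonged to them, 6 of 10 windows (60.0%), against 0 of 6 windows of the other cytosolic genes. Since ATF4 targets were known to be lower in these libraries, the list gives no independent evidence. ATF4 acts at this core, so its presence in windows of listed targets is no independent evidence either. Without either shCON library, 6 of the 13 fell and 1 of the 7 rose. Without shMAGED2 replicate 1, VARS passed as higher and QARS as lower, and without shMAGED2 replicate 2 QARS passed as lower.

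By place in the cell, the 8 enzymes of the multisynthetase complex (DARS, EPRS, IARS, KARS, LARS, MARS, QARS and RARS) showed 2 falls and 1 rise (median −0.13), where 11.6% of all genes fell and 12.3% rose. The 12 cytosolic genes outside it showed 7 falls and 2 rises (−0.39). In the complex 1 fell and 0 rose without either shCON library, and 4 fell and 1 rose without either shMAGED2 library, where 20.0% (replicate 1 left out) and 23.5% (replicate 2) of all genes fell. The scaffold proteins of the complex did not pass the edgeR test, at log2 changes of 0.48 (SE 0.15) for EEF1E1, −0.28 (SE 0.11) for AIMP1 and −0.09 (SE 0.14) for AIMP2. At an unadjusted p under 0.05, 1 of them was higher and 1 lower, and DESeq2 also called 0, while 1 rose and 1 fell without shMAGED2 replicate 1 and 1 fell without shMAGED2 replicate 2. Synthetases fall into a pair of classes by the fold of their catalytic domain, and of 19 class I genes 5 fell and 2 rose (median −0.12), against 4 falls and 6 rises among 17 class II genes (0.06), beside the same shares over all genes. EPRS, which fuses an enzyme of each class, was counted in class I only. None of these splits was tested.

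Among mitochondrial synthetases, LARS2 rose with the smallest p. This leucyl enzyme had 65.1 and 66.0 CPM in shMAGED2, against 40.8 and 41.7 CPM in shCON (log2 change 0.67, SE 0.10, edgeR adjusted p = 0.00828). Replicates of each group lay close together. MARS2, the methionyl enzyme, had 21.3 and 23.7 CPM in shMAGED2, against 13.6 and 13.3 CPM in shCON (0.74, SE 0.14, edgeR adjusted p = 0.0177). The alanyl enzyme AARS2 had 36.4 and 38.0 CPM in shMAGED2, against 26.5 and 22.6 CPM in shCON (0.60, SE 0.14, edgeR adjusted p = 0.0276).

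TARS2 and SARS2, the threonyl and seryl enzymes, completed the rises. TARS2 had 52.7 and 62.0 CPM in shMAGED2, against 39.6 and 39.8 CPM in shCON (log2 change 0.53, SE 0.12, edgeR adjusted p = 0.0301). SARS2 had 20.0 and 15.8 CPM in shMAGED2, against 10.8 and 7.98 CPM in shCON (0.93, SE 0.22, edgeR adjusted p = 0.0313), the widest spread of the 5. SARS2 shares exons with MRPS12 on the opposite strand (349 bases), which did not pass (log2 change 0.03). It shares more, 1492 of its 3231 exonic bases, with AC011455.2 on the same strand. That gene had 0 and 0 counts in shMAGED2, against 3 and 0 in shCON. The part of either overlap in the value of SARS2 was not tested. In limma on the filtered FPKM, AARS2 and TARS2 missed the threshold and LARS2, MARS2 and SARS2 kept it, and without the FPKM filter all 5 missed it. TARS2 also missed it in edgeR with library size alone (adjusted p = 0.0663). None of the 5 passed without either shCON library.

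The other 11 mitochondrial genes did not pass. RARS2 had 41.4 and 45.9 CPM in shMAGED2, against 55.7 and 57.0 CPM in shCON (log2 change −0.37, SE 0.11, edgeR adjusted p = 0.0611), the nearest to the threshold on the lower side. YARS2 (−0.32, SE 0.14), PARS2 (−0.27, SE 0.19), HARS2 (−0.22, SE 0.16) and EARS2 (−0.11, SE 0.12) had lower CPM in both shMAGED2 libraries, and CARS2 (0.21, SE 0.12) higher CPM. In FPKM the groups of HARS2 and of CARS2 overlapped. HARS2 had 12.1 and 17.5 FPKM in shMAGED2, against 18.4 and 17.3 FPKM in shCON. For WARS2, VARS2, IARS2, NARS2 and FARS2 the groups overlapped, at changes of −0.12 to 0.08. IARS2 had 224 and 291 CPM in shMAGED2, against 244 and 247 CPM in shCON. Its shMAGED2 libraries lay on either side of the controls, and it passed as higher without shMAGED2 replicate 1 (0.25, edgeR adjusted p = 0.0002) and as lower without shMAGED2 replicate 2 (−0.14, edgeR adjusted p = 0.0264).

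Enzymes for the same amino acid were next compared within each library, as the ratio of cytosolic to mitochondrial FPKM. Of 17 such pairs, the ratio was lower in both shMAGED2 libraries for 11, higher for 4 and overlapping for 2. EPRS and FARS2 each stand in 2 of the pairs. Single genes separated in CPM in 33.0% of cases in each direction, whereas these ratios are of FPKM. The share over other pairs of genes was not computed. SARS over SARS2 was 10.0 and 13.1 in shMAGED2, against 35.9 and 44.9 in shCON. AARS over AARS2 was 5.04 and 6.31 in shMAGED2, against 17.3 and 20.5 in shCON. In these pairs the cytosolic gene fell and the mitochondrial one rose. WARS over WARS2 was 7.47 and 5.77 in shMAGED2, against 22.5 and 18.6 in shCON, and there WARS2 did not pass.

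LARS over LARS2 (2.89 and 3.05 in shMAGED2, against 4.69 and 4.91 in shCON) and MARS over MARS2 (6.13 and 4.94 in shMAGED2, against 10.6 and 11.0 in shCON) were lower too, and there the mitochondrial gene rose while the cytosolic one did not pass. CARS over CARS2 was the only one of these ratios under 1, at 0.315 and 0.276 in shMAGED2, against 0.654 and 0.624 in shCON. Higher ratios in shMAGED2 were those of FARSB over FARS2 (6.74 and 5.13, against 2.75 and 3.88 in shCON), HARS over HARS2 (2.78 and 2.18, against 1.62 and 1.64), RARS over RARS2 and VARS over VARS2. YARS over YARS2 and FARSA over FARS2 overlapped. With 2 libraries in each group no such ratio can pass an exact permutation test, so these are descriptions.

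**Figure D3:**
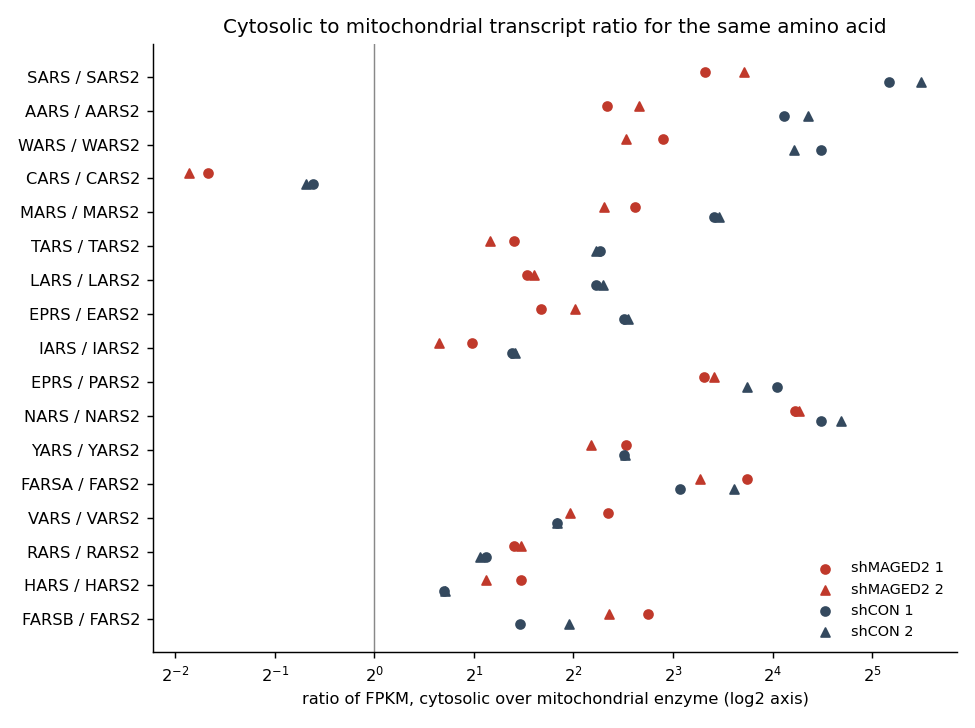
Ratio of cytosolic to mitochondrial FPKM for 17 gene pairs of the same amino acid (log2 axis), per library, shMAGED2 in red above shCON in dark blue, circles for replicate 1 and triangles for replicate 2. Rows run from the largest fall, SARS over SARS2, to the largest rise, FARSB over FARS2; 11 pairs lie lower in both shMAGED2 libraries.

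HARS and HARS2 are neighbours that start back to back, so their shared start region is shown. RefSeq places their starts 85 bases apart on opposite strands of chromosome 5, and their windows have 184 bases in common (chr5:140691321-140691504 in GRCh38.p14). The HARS window is chr5:140691321-140691620 (minus strand), and that of HARS2 is chr5:140691205-140691504 (plus strand). Neither holds the core TGATGNAA.
HARS: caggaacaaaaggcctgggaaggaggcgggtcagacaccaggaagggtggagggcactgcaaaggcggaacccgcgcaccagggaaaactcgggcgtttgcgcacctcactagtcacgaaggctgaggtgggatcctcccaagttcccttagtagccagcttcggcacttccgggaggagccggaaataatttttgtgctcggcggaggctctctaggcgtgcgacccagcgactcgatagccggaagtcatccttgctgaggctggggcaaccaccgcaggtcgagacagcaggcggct
HARS2: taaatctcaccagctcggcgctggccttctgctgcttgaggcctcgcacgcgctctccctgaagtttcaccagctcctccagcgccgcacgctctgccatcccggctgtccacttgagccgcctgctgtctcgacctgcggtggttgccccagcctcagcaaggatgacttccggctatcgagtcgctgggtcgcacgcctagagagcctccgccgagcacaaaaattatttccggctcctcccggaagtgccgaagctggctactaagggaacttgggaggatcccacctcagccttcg

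HARS2 had 31.1 and 41.4 CPM in shMAGED2, against 42.6 and 41.9 CPM in shCON (log2 change −0.22, edgeR adjusted p = 0.367), while HARS rose as given above. The difference between them was not tested. In GENCODE 29 they share 437 exonic bases on opposite strands, whereas the RefSeq starts given above lie apart without overlap. Neither the annotation nor the strand setting used for counting is stated, so reads there cannot be assigned with certainty. In all, 10 members share exons in GENCODE 29 with a gene on the opposite strand. Among them are WARS with WDR25 (287 bases) and AARS2 with TMEM151B (235 bases). With a gene on the same strand, 3 members share exons (HARS2, SARS2 and VARS2). HARS and HARS2 are also close relatives in sequence, which adds to this uncertainty.

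Other genes of tRNA supply were read from the same fit. Of 16 genes for the sensing of uncharged tRNA and related stresses, 9 fell and 1 rose, where 11.6% and 12.3% of all genes did. ATF4 itself had 85.0 and 99.0 CPM in shMAGED2, against 308 and 315 CPM in shCON (log2 change −1.76, SE 0.11, edgeR adjusted p = 0.000802). Its targets TRIB3 (−2.79, SE 0.15) and ATF3 (−2.55, SE 0.20) and its partner CEBPG (−1.27, SE 0.11) fell as well. EIF2AK4, which encodes the kinase GCN2, did not pass (0.26, SE 0.10), and its activator GCN1 rose (0.48, SE 0.09, edgeR adjusted p = 0.0136). GCN1 had 260 and 262 CPM in shMAGED2, against 187 and 188 CPM in shCON. Shares of all genes in the fits that leave out a library are given above. In this list 6 and 7 genes fell and 0 rose without shCON replicate 1 and 2, and without shMAGED2 replicate 1 and 2, 9 fell in each case and 3 and 4 rose.

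Of 20 genes of RNA polymerase III, which transcribes the tRNA genes, and of its factors, 6 rose and 0 fell (9 higher and 2 lower at an unadjusted p under 0.05; DESeq2 called 5 and 0), where 12.3% of all genes rose. The polymerase subunit POLR3G had 49.9 and 42.8 CPM in shMAGED2, against 23.0 and 19.4 CPM in shCON (log2 change 1.13, SE 0.15, edgeR adjusted p = 0.00547). POLR3E (0.59, SE 0.11) and the TFIIIC subunits GTF3C1 (0.44, SE 0.10) and GTF3C5 (0.65, SE 0.14) rose too. Without shCON replicate 1 and without shCON replicate 2, 1 of the 20 rose, and 10 rose and 2 fell without shMAGED2 replicate 1 or 2, where 21.1% and 23.5% of all genes rose.

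Of 20 genes of tRNA end processing, splicing and export, 3 rose and 1 fell, a share of 20% that is near the 23.9% of all genes. The nuclease ELAC2, which trims tRNA ends in nucleus and mitochondria (0.86, SE 0.11), and the RNase P subunits POP1 (0.80, SE 0.15) and POP7 (0.74, SE 0.15) rose. XPOT, the exporter of tRNA and itself commonly given as an ATF4 target, fell to 450 and 472 CPM in shMAGED2, against 679 and 704 CPM in shCON (−0.59, SE 0.09, edgeR adjusted p = 0.00764). Without shCON replicate 1 or 2 the counts were 1 higher and 0 lower, and without shMAGED2 replicate 1 or 2 they were 9 and 7 higher, where 21.1% and 23.5% of all genes were, and 1 and 3 lower, where 20.0% and 23.5% were.

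Selenocysteine is made on its tRNA from serine. Of 9 tested genes of this route, of proofreading and of related steps, 4 fell and 1 rose, where 11.6% and 12.3% of all genes did. Those that fell included the selenophosphate synthetase SEPHS2 (−1.18, SE 0.16) and SECISBP2, which binds selenoprotein messages (−0.71, SE 0.11). The others were SEPSECS, which makes the final conversion (−0.95, SE 0.17), and TARSL2, a relative of TARS (−0.78, SE 0.17). SEPHS1, a relative of SEPHS2, rose (0.55, SE 0.15); it was singled out with its value known. SEPHS2 had 62.5 and 85.5 CPM in shMAGED2, against 175 and 160 CPM in shCON (edgeR adjusted p = 0.00614). The shares of all genes in fits that leave out a shCON library are given above. Without shCON replicate 1 or 2, 1 gene of this list fell and 0 rose.

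Helpers of mitochondrial charging did not pass in either direction. Of 11 genes, edgeR and DESeq2 called 0, with 2 higher and 0 lower at an unadjusted p under 0.05 in edgeR (median 0.22). Without shMAGED2 replicate 1 and 2, 2 rose in each case and 0 and 1 fell. Shares of all genes in those fits stand with the first such counts above. GATC (0.36, SE 0.14) and QRSL1 (0.31, SE 0.13), subunits of the enzyme that completes mitochondrial glutaminyl-tRNA, had the smallest p, followed by TRIT1 (−0.29, SE 0.14) and GTPBP3 (0.32, SE 0.17), which modify tRNA. Of 9 mitochondrial translation factors 2 passed (22.2%, near the 23.9% of all genes), both higher, the recycling factor MRRF (0.61, SE 0.10) and TUFM, which brings charged tRNA to the mitochondrial ribosome, with 241 and 245 CPM in shMAGED2, against 191 and 180 CPM in shCON (0.39, SE 0.09, edgeR adjusted p = 0.029). GFM1 (0.28, SE 0.09) and MTRF1L (0.23, SE 0.11) did not pass. Without shCON replicate 1 or 2 none of these rose. Without shMAGED2 replicate 1 and 2, 4 and 7 rose, where 21.1% and 23.5% of all genes did, and 0 and 1 fell.

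On the cytosolic side, 2 of 8 tested elongation factors rose and 1 fell, where 12.3% of all genes rose and 11.6% fell. EIF5A, which helps ribosomes past proline runs, had 641 and 692 CPM in shMAGED2, against 350 and 346 CPM in shCON (0.94, SE 0.09, edgeR adjusted p = 0.002). EEF2K, the kinase that inhibits EEF2, rose (0.56, SE 0.13), and the translocase EEF2 fell (−0.52, SE 0.09). EEF1A1, which delivers charged tRNA to the ribosome, had 3988 and 5444 CPM in shMAGED2, against 6662 and 6622 CPM in shCON, and did not pass (−0.49, SE 0.16, edgeR adjusted p = 0.0701). DESeq2 called 2 lower. Of these factors 1 rose and 0 fell without shCON replicate 1 or 2, and without shMAGED2 replicate 1 and 2, 3 and 2 rose and 2 and 4 fell. The shares of all genes in those fits are given above. EEF1A1 has many processed copies in the genome, so its counts are uncertain.

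**Figure D4:**
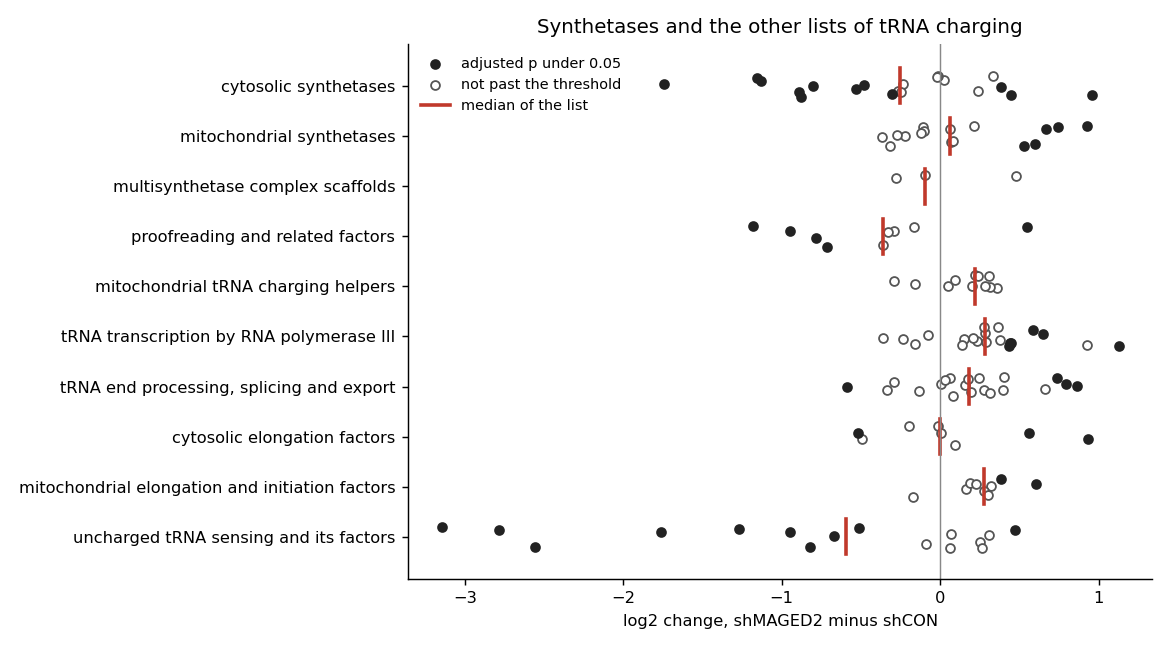
Log2 change, shMAGED2 minus shCON, of each tested gene (points, with a random vertical offset) in 10 lists of tRNA charging, the synthetases at the top. Filled points passed an adjusted p of 0.05 and red bars are list medians, −0.26 for cytosolic synthetases, 0.06 for mitochondrial ones and −0.59 for the sensing genes at the bottom.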

How the data were processed

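RNA of 4 U87-MG libraries was measured. The deposited counts are whole reads per gene, not normalised, and the deposited FPKM were computed by the authors, with gene lengths not given; HISAT2, StringTie and SAMtools on hg38 are named, per the submitters' processing notes. No source used here gives the annotation, the strand setting or the handling of multiply mapped reads.

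Libraries were grouped by their titles. Counts were tested in edgeR 4.0.16 (R 4.3.3): filterByExpr, TMM scaling, and a robust quasi-likelihood fit with group as its only term, two-sided, with Benjamini-Hochberg adjustment over 15293 genes and a threshold of 0.05. Standard errors derive from the F statistic. CPM are TMM-scaled. The 12 alternatives included DESeq2 1.42.0 and limma 3.58.1 on log2(FPKM + 1) and log2(FPKM + 0.1) keeping genes that reach 1 FPKM in at least 2 libraries, a scale that understates changes of low genes. The tests were tried on simulated data. Positions are from GENCODE 29, promoters from RefSeq. Members, lists and alternatives were chosen with earlier results of these data known. Every member is named; of other lists, the 4 genes with the smallest p, plus ATF4, EIF2AK4 and GCN1; SEPHS1 and DDIT3 fall outside this rule. PRORSD1P, listed, was not matched. Some withheld items are not reported here.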

Additional observations from a re-analysis of the deposited data

How the results depend on the processing

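None of the 17 called members changed direction in any of the 12 alternatives, and 7 of them passed in all 12. The groups of every called member were apart in CPM, so leaving out a library could hardly reverse its direction. The other alternatives used the same libraries, so the kept directions are no independent evidence. DESeq2 and edgeR with DESeq2 size factors kept all 17 calls, library size alone 15, and the fit without a count filter 16. With a replicate block 15 calls were kept (KARS and TARS were lost), and 3336 genes passed in all. Nothing in the labels says that equal replicate numbers pair libraries. Deviations of equal numbers from their group means had r = −0.018 across genes. With 2 libraries per group this rests on a single difference in each, so it cannot decide whether libraries were paired. In limma on the FPKM 13 members passed with either pseudocount, where 1 cytosolic and 3 mitochondrial genes rose. Without the FPKM filter 7 members passed, with 1 cytosolic and 0 mitochondrial genes higher, and 1359 genes passed in all. The cytosolic median of −0.26 was −0.31 with library size alone, −0.30 with log2(FPKM + 1), filtered or not, and −0.31 with log2(FPKM + 0.1). Leaving out each library gave 1100 to 7447 genes passing, 6 to 12 cytosolic genes lower and 1 to 5 higher, 0 to 7 mitochondrial genes higher and 0 to 5 lower. The medians ranged from −0.29 to −0.25 (cytosolic) and −0.072 to 0.20 (mitochondrial), and the log2 ratios of the summed FPKM from −0.66 to −0.52 and −0.11 to 0.22. Only members that had not passed reversed, 7 in all. DARS (0.03) went to −0.031 with library size alone, −0.033 with log2(FPKM + 1), filtered or not, and −0.034 with log2(FPKM + 0.1). IARS2 (0.07) went to −0.0018 with log2(FPKM + 1), filtered or not, and −0.0021 with log2(FPKM + 0.1). With a library left out, DARS ranged from −0.11 to 0.14, LARS from −0.079 to 0.046, RARS from −0.14 to 0.090, FARS2 from −0.19 to 0.37, IARS2 from −0.14 to 0.25, NARS2 from −0.088 to 0.23 and VARS2 from −0.41 to 0.15. The cause of these changes was not tested.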
